A study of Bos taurus with 9 samples.

Results

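The genes of cholesterol synthesis, sensing, uptake, efflux and esterification were examined in liver biopsies of lactating Holstein cows. They were chosen by symbol, as a list of 36 genes of these functions, and 35 of them were found among the 28786 genes counted; *STARD4* was not analysed here. The list held 18 synthesis enzymes, 4 sterol sensing genes, 4 genes of uptake and movement inside the cell, 2 liver X receptor (LXR) genes, 4 ABC transporters and 3 esterification enzymes. All 35 had enough reads to be tested in each comparison.

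The study compared thermoneutrality (TN), heat stress (HS) and a pair-fed group (PF) that was kept at thermoneutrality with its feed held to the intake of the HS cows. Each group held 3 cows, taken from a larger experiment, and each cow gave 1 liver biopsy and 1 polyA RNA library, so that n = 3 in every group and there were 9 libraries. All cows were housed at thermoneutrality before the treatments, and the biopsies were taken late in the treatment period. HS cows had hot days and warm nights. PF cows share the lower intake of the HS cows but not the heat, which makes them the control for feed intake.

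Cholesterol is built from acetyl-CoA through the mevalonate pathway, in which *HMGCS1* acts early, *SQLE* commits squalene to sterols, and *DHCR7* makes the final product of one of the late branches. When sterols in the endoplasmic reticulum are low, SCAP escorts the transcription factor encoded by *SREBF2* to the Golgi for activation, and its targets include most synthesis genes and *INSIG1*. When sterols are high, the INSIG proteins hold SCAP back. Oxysterols activate the LXRs, which raise transcription of the transporters that move cholesterol to lipoprotein particles (*ABCA1*, *ABCG1*) or into bile (*ABCG5* with *ABCG8*). The liver both makes cholesterol and clears it from the blood, and in the lactating cow it also supplies lipoproteins while the mammary gland draws on blood lipids.

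Reads counted on genes ranged from 16874444 to 22557047 per library. Expression is given as CPM, a gene's reads over all counted reads of the cow at a common library size, with library sizes scaled by the trimmed mean of M values (TMM). Levels are compared between cows, not between genes. TN replicate 1 stood apart from the other libraries, with a scaling factor of 1.326, where the others had 0.869 to 1.202, and with 17288 CPM summed over 8 hepatocyte markers, where the others had 59965 to 129091 CPM. None of these markers had an unadjusted p under 0.05 in a pair of groups. The 13 mitochondrial protein-coding genes held 13.6% to 22.2% of counts in TN cows and 3.84% to 7.79% in PF and HS cows, and their part in the results was not tested beyond leaving them out. All 8 hepatocyte markers were present. Markers of skeletal muscle summed to at most 0.102 CPM and those of pancreas to at most 1.17 CPM, and of the adrenal cortex markers *CYP11B1* and *MC2R* were at 0 counts in each cow. Of 4 erythroid markers, summing to 0.592 to 23.1 CPM, only 2 had enough reads to be tested. Of these, 1 was lower in HS and 1 in PF than in TN cows at an unadjusted p under 0.05. So was 1 of 5 stellate cell markers in HS cows. Of all genes, 5.23% were lower in HS and 3.89% in PF than in TN cows at such a p. In such bulk samples, fewer cells of a type and less RNA per cell cannot be told apart.

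The synthesis genes differed more between cows of the same group than between the groups. Their summed level was 3003, 4463 and 6119.6 CPM in TN replicates 1, 2 and 3. In the PF cows it was 6176, 6504 and 2079 CPM. In the HS cows it was 2375, 1822 and 7065 CPM. By this sum the HS group held both the lowest and the highest of the 9 cows. The range of the TN cows lay inside that of the PF cows, which lay inside that of the HS cows. The sum weighs abundant genes most, such as *SC5D*, with means of 727 CPM under TN, 1262 CPM under PF and 892 CPM under HS. The mean log2(CPM + 0.5) of the 18 genes weighs each gene alike. By it HS replicates 2 and 3 were again the extremes, at 6.13 and 8.13, but TN replicate 3 (8.09) was above PF replicate 2 (8.04). The mean was 4528 ± 1559.6 CPM under TN, 4919 ± 2466 CPM under PF and 3754 ± 2881 CPM under HS (SD, n = 3), and the highest cow had 2.04, 3.13 and 3.88 times the level of the lowest in these groups.

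**Figure D1:**
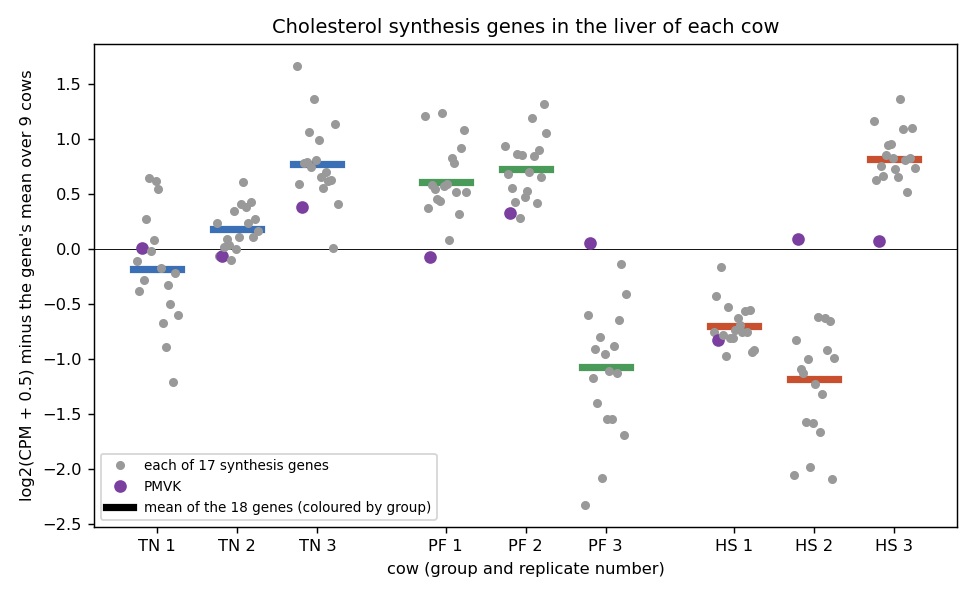
Level of each of the 18 cholesterol synthesis genes in each cow, as log2(CPM + 0.5) minus the mean of that gene over the 9 cows (vertical axis), by cow (horizontal axis). Grey points are 17 genes, purple points are PMVK, and bars are the mean of the 18 genes, coloured by group. PF replicate 3, HS replicate 1 and HS replicate 2 lie low for nearly all genes. HS replicate 3 lies high, with a mean log2(CPM + 0.5) of 8.13, near TN replicate 3 (8.09), PF replicate 2 (8.04) and PF replicate 1 (7.93).

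The enzymes shared much of their order of cows. HS replicate 3 was the highest HS cow in 17 of 18 synthesis genes, where it was the highest in 33.7% of 15073 genes tested. PF replicate 3 was the lowest PF cow in 17 of 18, where it was the lowest in 30.6% of all genes. HS replicate 2 was the lowest HS cow in 16 of 18, against 30.7% of all genes. Among TN cows, replicate 3 was the highest in 16 of 18, against 27.2% of all genes. Over the 9 cows, TN replicate 3 was the highest in 7 of 18 (7.11% of all genes). PF replicate 2 was so in 5 (10.3%) and HS replicate 3 in 5 (12.8%). These positions were chosen after the values were seen and are a description. The exception in both the HS and the PF group was *PMVK*, which encodes phosphomevalonate kinase. Its level was 71.7, 68.3 and 93.1 CPM in TN replicates 1 to 3, 68.0, 89.8 and 74.2 CPM in PF replicates 1 to 3, and 39.9, 75.8 and 75.1 CPM in HS replicates 1 to 3, so that its low cow was HS replicate 1 alone.

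*HMGCS1*, which encodes the cytosolic synthase that makes HMG-CoA, had the widest range. It was at 242, 308 and 829 CPM in TN replicates 1 to 3, at 605, 501 and 51.6 CPM in the PF cows, and at 154, 62.4 and 587 CPM in the HS cows. The highest cow, TN replicate 3, had 16.1 times the level of the lowest, PF replicate 3. *SQLE*, squalene epoxidase, followed the same order at 126, 151 and 307 CPM in TN, 280.5, 216 and 27.7 CPM in PF and 67.7, 29.7 and 231 CPM in HS cows. For *DHCR7*, the 7-dehydrocholesterol reductase, the levels were 93.6, 132 and 240.1 CPM in TN, 230.4, 272 and 33.3 CPM in PF and 56.6, 25.2 and 234 CPM in HS cows. In all of these genes the low cows were PF replicate 3 and HS replicates 1 and 2. *MSMO1*, the sterol C4 methyl oxidase, spanned 168 CPM in HS replicate 2 to 1372 CPM in HS replicate 3, which is 8.19-fold within the HS group.

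The steps of the pathway differed in how far they varied. Between HS replicate 3 and HS replicate 2 the fold ran from 0.99 for *PMVK* to 9.4 for *HMGCS1*, with a median of 3.75 over the 18 genes. *SQLE* (7.79-fold) and *DHCR7* (9.3-fold) were near the top, while *TM7SF2*, a sterol C14 reductase (2.41-fold), *EBP*, the sterol isomerase (2.71-fold), and *MVK*, mevalonate kinase (2.77-fold), were near the bottom. In the PF group the mean of replicates 1 and 2 exceeded replicate 3 by 10.7-fold for *HMGCS1*, 8.95-fold for *SQLE*, 7.54-fold for *DHCR7*, 1.9-fold for *SC5D*, a sterol desaturase, and 1.06-fold for *PMVK*, with a median of 2.97.

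The within-group SD of log2(CPM + 0.5) put these genes among the most variable ones. Its median was 0.81 over the 18 synthesis genes, 0.42 over the other 17 genes of the list, 0.39 over the 15073 genes tested and 0.33 over the 5803 genes with a mean of 20 CPM or more. *HMGCS1* had an SD of 1.57, at percentile 99.7 of all genes tested, *SQLE* 1.41, *DHCR7* 1.40 and *MSMO1* 1.31. Of the 18 genes 17 were above the median of all genes, and *PMVK*, at 0.35, was below it. By group, the median SD of the synthesis genes was 0.52 for TN, 0.92 for PF and 1.00 for HS, where those of all genes were 0.37, 0.35 and 0.30. Genes of one pathway in the same cows are not independent, and no test of the spread was made.

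**Figure D2:**
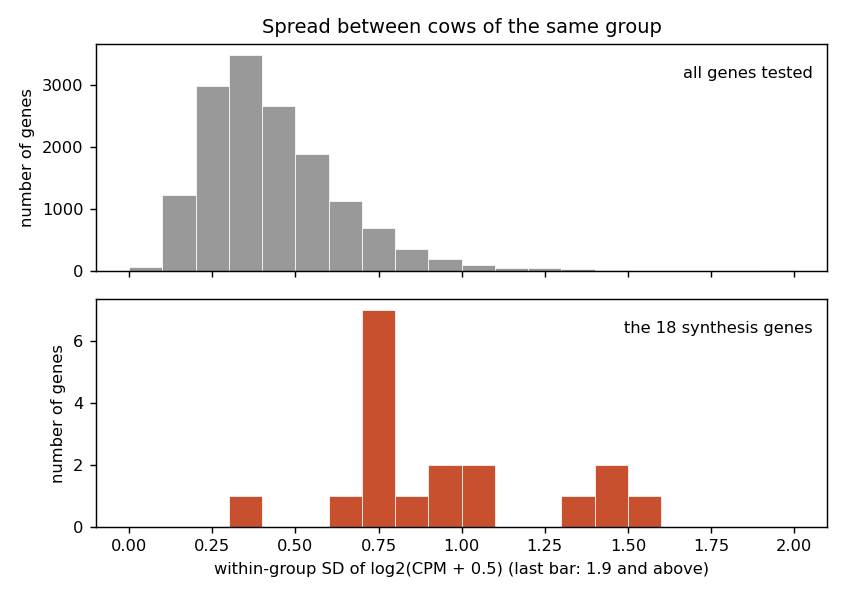
Number of genes (vertical axes) by the SD of log2(CPM + 0.5) between cows of the same group, pooled over the 3 groups (horizontal axis), for all 15073 genes tested (top) and for the 18 synthesis genes (bottom). Of the synthesis genes 17 lie above 0.6, while the median of all genes is 0.39.

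The hepatocyte markers varied partly with the synthesis genes. Their sum was 17288, 78909.5 and 65824 CPM in TN replicates 1 to 3, with the lowest value in the cow that was also lowest for most synthesis genes in that group. Among PF cows it was 119708, 88771 and 87156 CPM, so that PF replicate 3 was lowest, by a small margin over replicate 2. In HS cows it was 59965, 76009 and 129091 CPM, and HS replicate 3 was the highest of the 9 cows in both measures, while HS replicate 2, the lowest in synthesis, was above HS replicate 1. TN replicate 1 had the lowest marker sum with a synthesis sum above those of PF replicate 3 and HS replicates 1 and 2. The part of hepatocyte content in the spread of the synthesis genes was not tested.

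Given this spread, no synthesis gene passed the test in any comparison. Genes were tested in pairs of groups with edgeR, and a gene was called differentially expressed (DEG) at a Benjamini-Hochberg adjusted p (FDR) under 0.1 with a fold over 1.5. The log2 fold change is written log2FC, with its standard error (SE). Of 14582 genes tested between HS and TN cows 0.0892% were DEGs, and of the 35 cholesterol genes 0 were. Their FDRs ranged from 0.33 to 0.984, and 3 had an unadjusted p under 0.05 (9.36% of all genes did), 2 of them higher in HS cows (4.13% of all genes) and 1 lower (5.23%). This number rested on HS replicate 3: without it 16 of the 35 had such a p, where 884 of 15168 genes did, and 0 were DEGs. Between HS and PF cows the background was 0.0276%, with 0 of the 35 genes called and 2 at an unadjusted p under 0.05 (5.32% of all genes), 1 higher (3.07%) and 1 lower (2.25%). Without HS replicate 3 it was 14 of 35, where 806 of 15104 genes had such a p, again with 0 DEGs. Between PF and TN cows 0% of genes were DEGs, and 2 of the 35 had an unadjusted p under 0.05 (6.88% of all genes), 1 higher (2.99%) and 1 lower (3.89%). HS and TN cows were fully separated for 2 of the 35 genes, as they were for 16.1% of all genes (8.37% higher and 7.7% lower in HS cows). For HS and PF cows it was 3 of 35 against 10.5% (5.95% higher, 4.58% lower), and for PF and TN cows 1 of 35 against 13.2% (6.81% higher, 6.36% lower). DESeq2, the tool of the study, was run as an alternative. It called 1.75% of genes between HS and TN cows and 2 of the 35, *INSIG1* and *ABCA1*. In the other comparisons it called 0 of the 35, where it called 0.771% (HS against PF) and 0.555% (PF against TN) of all genes.

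Of the 18 synthesis genes, 17 had a lower mean in HS than in TN cows, with log2FC from -0.84 for *FDPS*, the farnesyl diphosphate synthase, to 0.29 for *SC5D*. The median was -0.36, against -0.01 over all genes tested, of which 50.7% were lower. The smallest FDR was 0.612 and 0 genes had an unadjusted p under 0.05, with all 3 HS cows in the fit. Without HS replicate 3, 14 of the 18 had an unadjusted p under 0.05, where 884 of 15168 genes did. Log2FC of *FDPS* was then -1.91 with an FDR of 0.357 (edgeR). With any other cow left out 0 of 18 had such a p. The mean of *SQLE* was 109.6 ± 107 CPM under HS against 195 ± 97.8 CPM under TN (SD, n = 3), with log2FC -0.84 (SE 0.65, FDR 0.673, edgeR). For *HMGCS1* log2FC was -0.79 (SE 0.75, FDR 0.728, edgeR). The number of lower genes rested on single cows: it was 18 without HS replicate 3 or TN replicate 1, and 10 without HS replicate 2 or TN replicate 3. The mean log2 difference over the 18 genes was -0.61, and -1.19 and -0.19 without HS replicate 3 and HS replicate 2.

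Against the PF cows all 18 synthesis genes had a lower mean in HS cows, where 49.1% of all genes were lower. Log2FCs ran from -0.77 for *DHCR7* to -0.02 for *FDFT1*, squalene synthase, with a median of -0.35 and an FDR of 1 for each. Without HS replicate 2 it was 10 of 18. Without HS replicate 3 all 18 were lower and 12 had an unadjusted p under 0.05, where 806 of 15104 genes did. Log2FC of *DHCR7* was then -2.12 with an FDR of 0.756 (edgeR). With any other cow left out 0 of 18 had an unadjusted p under 0.05. Between PF and TN cows 11 of the 18 were lower, against 51.2% of all genes, with a median of -0.09 and a range from -0.47 for *CYP51A1*, the lanosterol demethylase, to 0.79 for *SC5D* (SE 0.44, FDR 0.709, edgeR). Here the direction rested on single cows of both groups. Without PF replicate 3 only 1 of the 18 was lower, and the mean log2 difference went from -0.17 to 0.41. Without TN replicate 3 the number lower was 5, and the mean log2 difference was 0.09. These comparisons share cows and are not independent of each other.

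**Figure D3:**
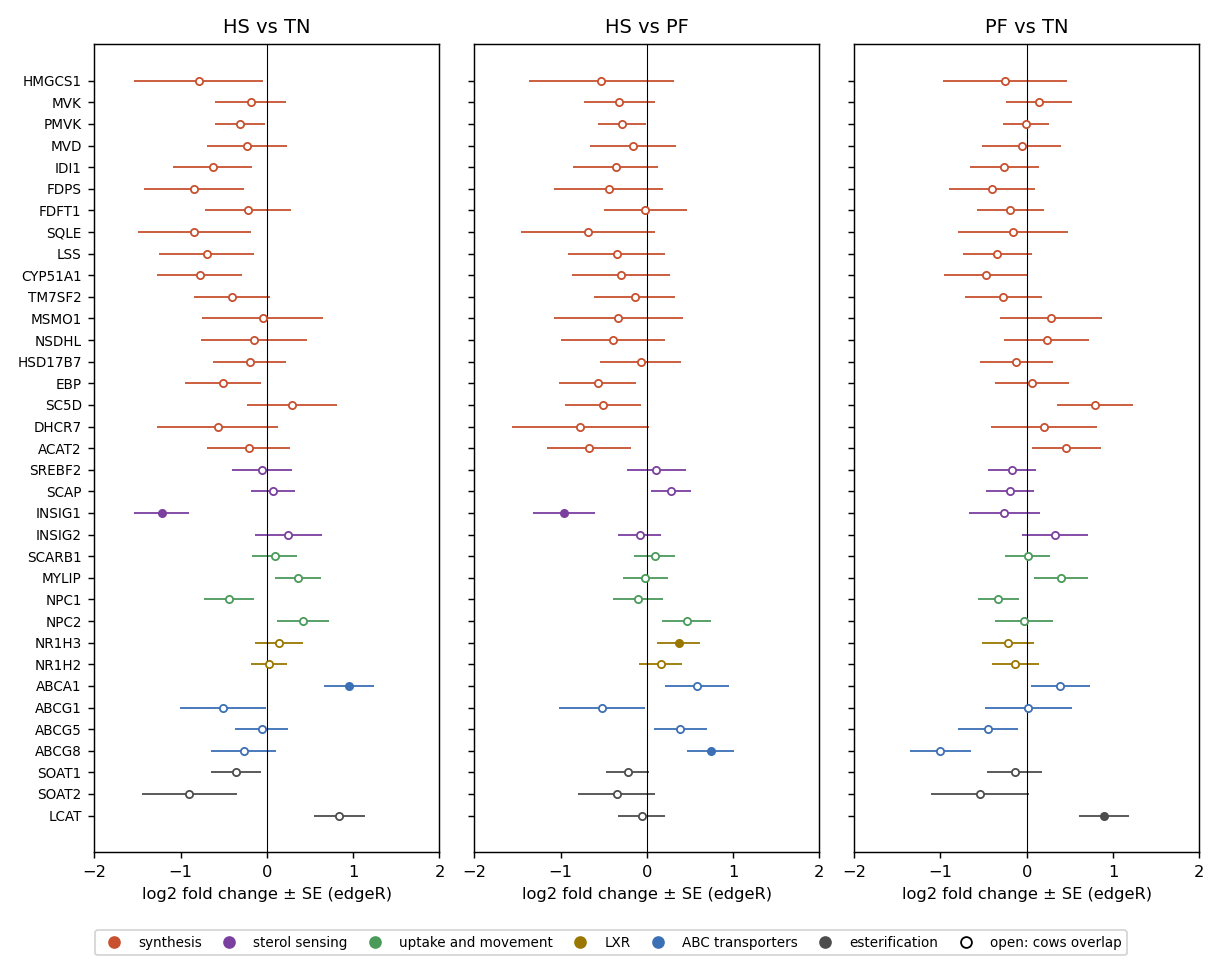
Log2 fold change of each of the 35 genes with its SE (horizontal axes, edgeR) in HS against TN, HS against PF and PF against TN cows, ordered and coloured by role. Filled points mark genes whose cows do not overlap between the groups; these are INSIG1 and ABCA1 for HS and TN, INSIG1, NR1H3 and ABCG8 for HS and PF, and LCAT for PF and TN.

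*INSIG1*, the sterol-regulated protein that retains SCAP in the endoplasmic reticulum, was the sensing gene with the largest difference. Its level was 379, 435 and 590.2 CPM in TN replicates 1 to 3, 298, 633 and 247 CPM in the PF cows and 236, 178 and 195 CPM in the HS cows. Each HS cow was below each TN cow and each PF cow, although the lowest PF cow and the highest HS cow were only 247 and 236 CPM. Against TN cows log2FC in HS cows was -1.22 (SE 0.32, FDR 0.33, edgeR), or 2.33-fold lower, and it lay between -1.34 and -1.02 with 1 cow left out. DESeq2 gave -1.19 with an FDR of 0.00277 and called it in each of 6 fits that left out 1 cow, with FDRs from 0.000125 to 0.0771. The edgeR FDR was above 0.1 in every alternative fit that was run with edgeR, and ranged from 0.262 to 0.71 with 1 cow left out. Against PF cows it was -0.96 (SE 0.36, FDR 0.806, edgeR) and -0.43 without PF replicate 2, the alternative that moved it most. Between PF and TN cows it was -0.26 (SE 0.41, FDR 0.872, edgeR).

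Although *INSIG1* shares its regulator with the synthesis genes, neither the HS cows nor the PF cows followed a common relation. In HS replicate 3 the synthesis genes were at a mean of 8.13 on the log2(CPM + 0.5) scale, the highest of the 9 cows, and *INSIG1* was at 7.61. In TN replicate 3 and PF replicate 2, with synthesis means of 8.09 and 8.04, *INSIG1* was at 9.21 and 9.31. The difference of *INSIG1* and the synthesis mean was -0.52 in HS replicate 3, 0.30 in PF replicate 1 and between 1.12 and 1.70 in the other 7 cows, HS replicates 1 and 2 included. The low *INSIG1* of the HS group thus came with low synthesis genes in replicates 1 and 2 and with high synthesis genes in replicate 3.

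**Figure D4:**
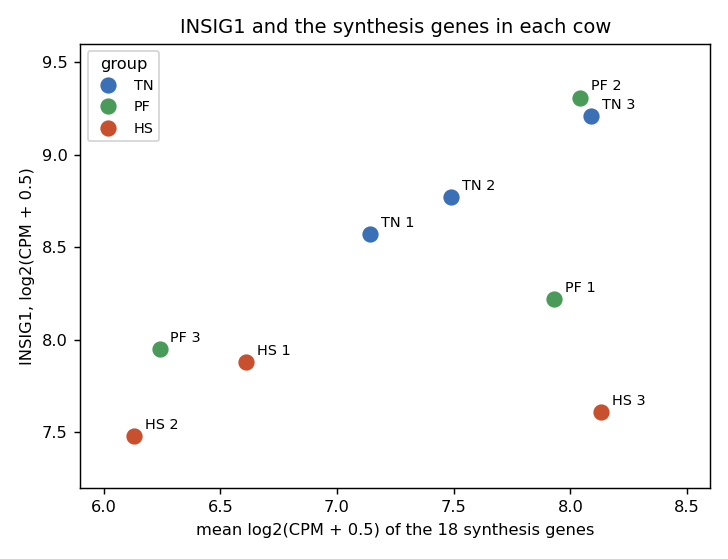
INSIG1 as log2(CPM + 0.5) (vertical axis) against the mean log2(CPM + 0.5) of the 18 synthesis genes (horizontal axis), 1 point per cow, coloured by group. HS replicate 3 lies at 8.13 and 7.61, far below TN replicate 3 and PF replicate 2 at a like synthesis level. PF replicate 1, at 7.93 and 8.22, lies between them.

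The other sensing genes differed less between the groups. *SREBF2*, which encodes the transcription factor SREBP-2, was at 101, 72.9 and 96.0 CPM in TN, 88.4, 91.0 and 61.0 CPM in PF and 72.8, 52.8 and 136 CPM in HS cows. Its lowest and highest cows, HS replicates 2 and 3, were also the extremes of the synthesis genes, but its within-group SD was 0.46. *SCAP*, its escort, had a within-group SD of 0.29 and levels of 17.8 to 32.9 CPM over the 9 cows. *INSIG2*, the isoform that is not a strong SREBP target, ranged from 19.1 to 63.9 CPM, with both extremes in the TN group. None of the 3 had an unadjusted p under 0.05 in any pair.

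The ABC transporters had no common direction. *ABCA1*, which loads cholesterol on apolipoprotein A-I, was at 64.8, 71.8 and 68.0 CPM in TN replicates 1 to 3, 85.5, 133 and 50.5 CPM in the PF cows and 129, 183 and 88.6 CPM in the HS cows. Every HS cow was above every TN cow, and the TN cows varied little, with a mean of 68.2 ± 3.5 CPM (SD, n = 3). Log2FC between HS and TN cows was 0.95 (SE 0.29, FDR 0.417, edgeR), or 1.94-fold. DESeq2 called it with an FDR of 0.0823 and lost the call in 5 of 6 fits that left out 1 cow, with FDRs up to 0.468, keeping it without HS replicate 3. Between HS and PF cows the groups overlapped, with log2FC 0.58 (SE 0.37, FDR 1, edgeR). Between PF and TN cows it was 0.39 (SE 0.34, FDR 0.773, edgeR), and -0.00 without PF replicate 2.

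Macrophages also express *ABCA1*. The 8 markers summed to 959 to 2169 CPM in TN, 1127 to 1549 CPM in PF and 1508 to 2366 CPM in HS cows. Between HS and TN cows, whose sums overlapped, 1 of 8 was higher at an unadjusted p under 0.05 (4.13% of all genes). Between HS and PF cows 6 of 8 were higher (3.07% of all genes), and between PF and TN cows 1 was higher and 1 lower. HS replicate 2, with the highest *ABCA1*, had the lowest marker sum of the HS cows at 1508 CPM. The part of these cells in the *ABCA1* level was not tested.

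*ABCG8*, which forms the biliary sterol exporter with *ABCG5*, was at 24.3, 36.6 and 70.1 CPM in TN, 20.3, 25.8 and 19.2 CPM in PF and 51.0, 29.6 and 28.6 CPM in HS cows. The HS cows were all above the PF cows, with log2FC 0.74 (SE 0.27, FDR 0.786, edgeR). The TN cows overlapped with both other groups. The mean was 43.7 ± 23.7 CPM under TN against 21.8 ± 3.54 CPM under PF (SD, n = 3), with an FDR of 0.697 (edgeR), and log2FC was -0.48 without TN replicate 3. In HS cows log2FC was -0.27 (SE 0.38, FDR 0.819, edgeR), and 0.24 without that TN cow. DESeq2 called *ABCG8* in none of the 3 pairs. *ABCG5* ranged from 10.2 CPM in PF replicate 3 to 31.0 CPM in TN replicate 3, and its lowest and highest cows were those of *ABCG8*. *ABCG1* ranged from 1.34 to 4.7 CPM, and neither of these genes had an unadjusted p under 0.05.

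**Figure D5:**
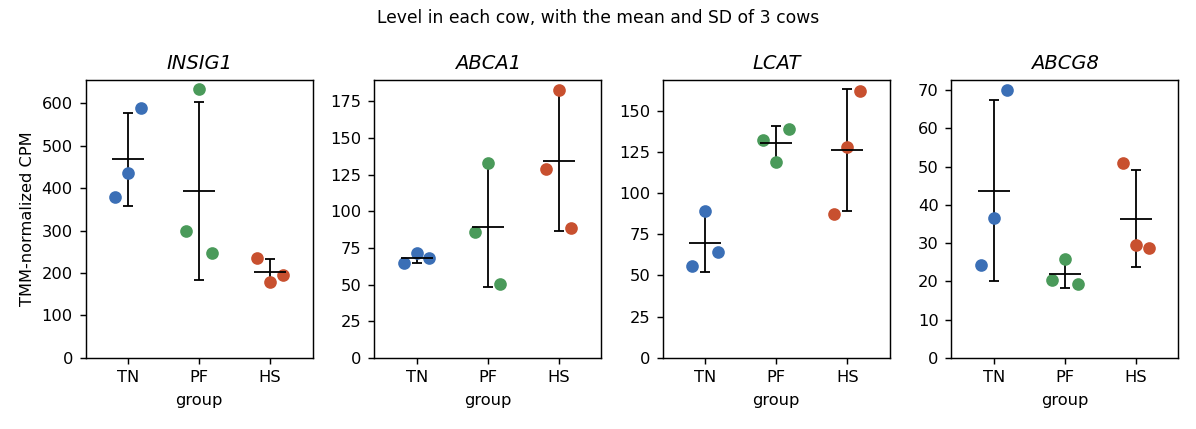
TMM-normalized CPM (vertical axes, from 0) of INSIG1, ABCA1, LCAT and ABCG8 in each cow of the TN, PF and HS groups, with the mean and SD of 3 cows as bars. INSIG1 is lowest in the 3 HS cows, ABCA1 is higher in each HS than in each TN cow, LCAT is higher in each PF than in each TN cow, and ABCG8 is lower in each PF than in each HS cow.

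Among the esterification genes, *LCAT*, the enzyme that hepatocytes secrete to esterify cholesterol on plasma lipoproteins, had higher means in both groups with low feed intake. It was at 55.5, 89.2 and 64.1 CPM in TN replicates 1 to 3, 132, 119 and 139 CPM in the PF cows and 87.3, 128 and 162 CPM in the HS cows. The PF cows were all above the TN cows, while HS replicate 1 was just below TN replicate 2. Log2FC against TN cows was 0.90 (SE 0.29, FDR 0.693, edgeR) in PF cows and 0.84 (SE 0.30, FDR 0.469, edgeR) in HS cows. Between HS and PF cows it was -0.06 (SE 0.27, FDR 1, edgeR). DESeq2 did not call it, with FDRs of 0.16 for PF and 0.217 for HS against TN cows. *LCAT* overlaps *PSMB10*, which encodes a proteasome subunit, in the ARS-UCD2.0 annotation, and reads from the overlap may not be told apart.

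The acyltransferases that store cholesterol esters inside cells had no unadjusted p under 0.05. *SOAT2*, the hepatocyte form, was at 18.5, 3.34 and 16.2 CPM in TN, 8.17, 3.91 and 14.2 CPM in PF and 6.05, 9.94 and 4.78 CPM in HS cows. Its log2FC between HS and TN cows was -0.90 (SE 0.55, FDR 0.596, edgeR), and its within-group SD of 0.94 was the largest outside the synthesis genes. *SOAT1* ranged from 16.9 to 38.0 CPM, with both extremes in TN cows.

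The LXR genes and the genes of uptake and movement had small differences. *NR1H3*, which encodes the LXR isoform abundant in liver, had the lowest within-group SD of the 35 genes at 0.21. Its level was 228 ± 41.1 CPM in TN, 197 ± 29.8 CPM in PF and 255 ± 12.3 CPM in HS cows (SD, n = 3). Each HS cow was above each PF cow, as in 5.95% of all genes, with an FDR of 1. *NR1H2*, the ubiquitous isoform, lay between 21 and 35.8 CPM. *SCARB1*, the HDL receptor, lay between 28.9 and 53.8 CPM, and *MYLIP*, an LXR-induced ubiquitin ligase that acts on lipoprotein receptors, between 6.74 and 15.6 CPM. *NPC1* and *NPC2*, which export cholesterol from lysosomes, lay between 15.7 and 35.1 CPM and between 127 and 264 CPM. Over *SCARB1*, *MYLIP*, *NPC1* and *NPC2* log2FC ran from -0.44 to 0.42 for HS against TN, from -0.10 to 0.46 for HS against PF and from -0.33 to 0.40 for PF against TN cows, and 0 had an unadjusted p under 0.05.

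In a single test of all 3 groups 0 of the 35 genes had an FDR under 0.1, where 0.0464% of 15073 genes did, and the smallest FDR was 0.523 (edgeR). The 4 genes with an unadjusted p under 0.05, against 7.86% of all genes, were *INSIG1*, *ABCA1*, *ABCG8* and *LCAT*. DESeq2 also called 0 of the 35, with a smallest FDR of 0.102 for *INSIG1*.

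A further 32 genes around sterol metabolism, which include SREBP-cleaving proteases, enzymes of the non-sterol branches, oxysterol binding proteins and lipoprotein receptors, gave 0 DEGs with edgeR in the 3 pairs. Without the filter on low counts edgeR called 1 of them, *LPIN1*. Between HS and TN cows 2 of 31 tested had an unadjusted p under 0.05, against 9.36% of all genes, both higher in HS cows (4.13% of all genes): *SORT1*, the sorting receptor sortilin, with log2FC 0.65 (SE 0.25, FDR 0.487, edgeR), and *DHDDS*, of dolichol synthesis, with 0.53 (SE 0.23, FDR 0.522). Between PF and TN cows 4 of 32 had such a p, against 6.88% of all genes, 1 higher (2.99%) and 3 lower (3.89%). *SORT1* was at 41.2 ± 9.72 CPM under TN against 80.7 ± 8.68 CPM under PF, log2FC 0.97 (SE 0.27, FDR 0.653, edgeR). *SREBF1*, which encodes the SREBP-1 of fatty acid synthesis, was at 124 ± 39.7 and 59 ± 28 CPM, with -1.08 (SE 0.39, FDR 0.697, edgeR), and *GRAMD1B*, an endoplasmic reticulum sterol carrier, also gave -1.08 (SE 0.40, FDR 0.705). *LPIN1*, the phosphatidate phosphatase lipin 1, is described next.

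*LPIN1* was at 107, 166 and 61.1 CPM in TN replicates 1 to 3, 39.7, 32.0 and 41.9 CPM in the PF cows and 87.1, 72.1 and 84.3 CPM in the HS cows. The PF cows were below all others. Log2FC was -1.56 (SE 0.36, FDR 0.523, edgeR) for PF against TN and 1.10 (SE 0.22, FDR 0.226, edgeR) for HS against PF cows. DESeq2 called both, with FDRs of 0.00686 and 0.00428, and so did edgeR without the filter on low counts, with FDRs of 0.0103 and 0.0492. Between HS and PF cows 2 of the 31 further genes tested had an unadjusted p under 0.05, against 5.32% of all genes. Both were higher in HS cows (3.07% of all genes). They were *LPIN1* and *PLTP*, the phospholipid transfer protein. For *PLTP* log2FC was 0.89 (SE 0.30, FDR 0.679, edgeR).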

How the data were processed

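The values used were raw read counts per gene as deposited by the authors, 1 column for each of 9 cows, mapped to groups by their labels. Per the submitters' processing notes and the methods, the authors filtered reads with fastp 0.23.2, aligned them to ARS-UCD1.2 with STAR 2.7.9a and counted them with featureCounts 2.0.3; the annotation release and the strand and multi-mapping settings are not given in the sources used here. Columns of no sample numbered 0.

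Each pair of groups was fitted on 6 libraries in R 4.3.3 by the quasi-likelihood F test of edgeR 4.0.16, after filterByExpr and TMM, with Benjamini-Hochberg adjustment across every gene in the fit. DEGs needed FDR below 0.1 plus a fold above 1.5. These thresholds are those of the study, which applied them to DESeq2 fits and not to edgeR fits. Levels are TMM-normalized CPM of all 9 libraries, and log2 values have an offset of 0.5. Cows not overlapping means that all 3 of one group exceeded all 3 of the other; an exact permutation test of 3 against 3 cannot go below p = 0.1. DESeq2 1.42.0 was the main alternative, and its number of DEGs in each pair equalled the number that the study reported. Other alternatives were RLE size factors, no filter, mitochondrial genes left out, a joint fit of the 9 libraries, a block for the replicate number and each cow left out. The fits were also run on simulated counts with the same dispersion (the spread between cows) for all genes. That run gives no measure of power for genes as variable as the synthesis genes.

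The genes, their subgroups and the lists were chosen with earlier results of these data known. Values in every cow were given for genes with an unadjusted p under 0.05 in a pair or a DESeq2 call, and for synthesis, sensing and esterification genes chosen after their values were seen; further sterol genes were named at an unadjusted p under 0.05. RefSeq of ARS-UCD2.0 matched 24366 of 28786 symbols and all 35 genes of the list. It was used only to name overlapping genes, which counting without strand may not separate. *TCP1* overlaps *ACAT2*, *RMC1* overlaps *NPC1*, *PSMB10* overlaps *LCAT* and *MIR33A* overlaps *SREBF2*. Genes named only by a LOC number overlap *LSS*, *NSDHL*, *HSD17B7*, *ACAT2*, *SCAP*, *ABCG1* and *NPC2*. Sequences were not used here.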

Additional observations from a re-analysis of the deposited data

How the results depend on the processing

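Of the 35 genes, 0 were DEGs with edgeR in any pair under any alternative; DESeq2 called 2 between HS and TN cows, *INSIG1* and *ABCA1*. Over the 630 combinations of gene, pair and alternative that kept all cows, 3 changed direction, all in synthesis genes. With 1 cow left out, 114 of 630 did, 71 of them in synthesis genes. The ranges with 1 cow left out were -0.36 to 0.55 for *SC5D*, -0.59 to 0.24 for *ABCG8* and 0.62 to 1.06 for *LCAT* (HS against TN), -0.82 to 0.32 for *FDFT1* and -0.28 to 0.14 for *LCAT* (HS against PF), and -0.78 to 0.01 for *INSIG1* and -0.00 to 0.69 for *ABCA1* (PF against TN). The number of the 35 genes with an unadjusted p under 0.05 ranged from 2 to 16 for HS against TN and from 1 to 14 for HS against PF, both highest without HS replicate 3, and from 1 to 4 for PF against TN, highest without TN replicate 2. The number of synthesis genes lower ranged from 10 to 18 for HS against TN, from 10 to 18 for HS against PF and from 1 to 16 for PF against TN. The mean log2 difference of the synthesis genes ranged from -1.19 to -0.19, from -1.03 to -0.03 and from -0.49 to 0.41. For the ABC transporters the mean log2 difference for PF against TN was -0.24. It was -0.64 when the median level of the 4 genes in each cow replaced their mean level. This median rests on the 2 genes of middle level in a cow. These were *ABCG5* and *ABCG8*, except in TN replicate 3, where they were *ABCG5* and *ABCA1*. With DESeq2 and 1 cow left out, added after seeing the data, *LCAT* was called between HS and TN cows without TN replicate 2 (FDR 0.0613) and without HS replicate 1 (FDR 0.0819).

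Over all genes, 13 DEGs between HS and TN cows became 270 with DESeq2, 124 without the filter on low counts, 4 with all 9 libraries in 1 fit, 0 at an FDR under 0.05 (1365 had an unadjusted p under 0.05) and 0 (without HS replicate 2, 1131 at an unadjusted p under 0.05) to 39 (without TN replicate 2) with 1 cow left out. The 4 between HS and PF cows (1 higher, 3 lower) became 122 with DESeq2, 98 without the filter, 8 (3 higher, 5 lower) with RLE size factors or without mitochondrial genes, and 5 to 10 with 1 cow left out. The 0 between PF and TN cows (1003 at an unadjusted p under 0.05) became 91 with DESeq2, 136 without the filter and 0 to 14 with 1 cow left out. For the 3 groups together 7 became 291 with DESeq2, 212 without the filter and 2 to 47 with 1 cow left out.

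With the replicate number as a block, the counts were 33, 6 and 1 for HS against TN, HS against PF and PF against TN, and 0 of the 35 genes were called. Between HS and TN cows the block gave 10 of the 35 genes and 7 of the 18 synthesis genes an unadjusted p under 0.05, where 1499 of 14582 genes had one. The labels do not say whether the numbers pair the cows. Deviations of same-numbered cows had correlations across 15073 genes from -0.22 to 0.24, which cannot exclude a pairing with so few cows. Of 6 cows in each pair, 3, 1 and 2 correlated best with their own number in these comparisons.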
